A study of Mus musculus with 745 samples.

Results

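The genes followed here, of the ATP-binding cassette (ABC) transporter family, were compared across single mouse brain endothelial cells: the drug efflux pump genes Abcb1a, Abcg2 and Abcc4, and the sterol exporter genes Abcg1 and Abca1. They were taken by gene symbol, 5 of the 20607 symbols in the count table and 5 of its 40 ABC family symbols, and all 5 passed the filter on low counts. Each of the 745 samples was 1 well holding 1 primary endothelial cell, sorted from dissociated brains of mice aged 3 months, which the labels call young. No genotype, strain, treatment or sort marker is given in the sources used here. The titles divide the wells into 3 sets, Young1 with 30.2% of the wells, Young2 with 34.6% and AY_Y3 with 35.2%, without saying what else sets them apart. P-values therefore measure only how class differences vary between sets, a spread that may be technical.

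ABC transporters use ATP to move substrates across membranes. At the blood-brain barrier, P-glycoprotein (Abcb1a), the breast cancer resistance protein (Abcg2) and a multidrug resistance-associated protein (Abcc4) sit mainly in the luminal membrane and return drugs and other foreign compounds to the blood. Abca1 passes cholesterol to lipid-poor apolipoproteins and Abcg1 to lipoprotein particles, and both are classical targets of the liver X receptors, which sense oxysterols.

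The wells held 52819 to 2421434 counts, with medians of 757949 in Young1, 713031 in Young2 and 411397 in AY_Y3. Wells with over 2000 counts per 1000000 (CPM), summed, of any of 9 marker lists for other cell types were left out, which kept 484 wells as endothelial (67.6% of Young1, 63.2% of Young2 and 64.5% of AY_Y3). All 10 endothelial markers were present in these wells, at 9528 to 11772 CPM summed in the classes below. Of the wells left out, 58.6% were over the limit through Mal alone, a gene of the oligodendrocyte list that had a read in 82.3% of all wells. A limit without Mal kept 637 wells, an alternative chosen after seeing the data, and its values stand below where they change a call. Endothelial wells were marked arterial, venous or capillary by the pair of marker genes that scored highest in them: Bmx and Gkn3 for arterial, Nr2f2 and Il1r1 for venous, Cxcl12 and Rgcc for capillary. This gave 75 arterial-marked wells, 74 venous-marked and 37.8% of the endothelial wells as capillary-marked, and left 31.4% between classes. Young1 held 13 arterial-marked wells, and Gkn3 reached only 11.03 CPM there, beside 142.9 CPM in Young2 and 353 CPM in AY_Y3. The median well had 662096 counts in the arterial-marked class, 634058 in the venous-marked and 551599 in the capillary-marked. Thinned to 50000 counts each, the median wells held 1892, 2187 and 1529 genes in that order.

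The promoters of Abcg2 and Abcb1a are shown because these pump genes were the pair most correlated over wells and both had their lowest levels in arterial-marked wells. Each line gives the 250 bases before an annotated start, 5′ to 3′ on the gene's strand, from RefSeq (GRCm38.p6). Abcg2 had 3 annotated starts and the most downstream one is shown, at chr6:58640296-58640545 on the plus strand. The window of Abcb1a is at chr5:8566841-8567090 on the plus strand. Capitals mark letters matching a searched motif on either strand: the GC box GGGCGG, the E-box CACGTG, the TATA box TATAAA, the nuclear receptor half-site AGGTCA and the TCF/LEF motif CTTTGAT.
Abcg2: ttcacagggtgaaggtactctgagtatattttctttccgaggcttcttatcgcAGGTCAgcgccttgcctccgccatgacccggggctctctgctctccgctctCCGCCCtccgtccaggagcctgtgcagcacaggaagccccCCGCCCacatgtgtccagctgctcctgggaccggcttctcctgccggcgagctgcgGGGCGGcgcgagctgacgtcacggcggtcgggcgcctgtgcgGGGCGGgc
Abcb1a: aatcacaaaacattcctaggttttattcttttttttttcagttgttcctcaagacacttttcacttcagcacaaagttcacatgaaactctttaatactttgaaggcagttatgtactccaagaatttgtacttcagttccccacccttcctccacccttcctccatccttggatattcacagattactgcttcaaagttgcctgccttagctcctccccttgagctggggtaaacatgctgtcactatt
The Abcg2 window held 4 GC boxes and 1 half-site in sequence of 67.6% GC with 23 CpG dinucleotides. The Abcb1a window held none of these motifs and no CpG, at 40.4% GC. Among all 32851 RefSeq windows of this length, 32.7% held a GC box, 14.02% a half-site, 12.4% a TATA box, 6.02% an E-box and 3.21% the TCF/LEF motif, and the median window had 52.4% GC and 6 CpG. Of the 2 other Abcg2 windows, 1 held 50% GC and 2 GC boxes, and 1 held 51.2% GC and 2 half-sites. Abca1 had 1 window, at 61.6% GC, with 2 GC boxes, 1 E-box and 1 TATA box. Of the 2 Abcc4 windows, the one farther upstream held 72% GC, 3 GC boxes and 1 E-box, and the other, at 47.6% GC, held none of the motifs. Direct repeats of the half-site spaced by 4 bases are the arrangement that liver X receptors bind. Exact copies were in no window of the matched genes and in 0.0152% of all windows. Repeats with mismatches were not searched, so these windows may hold imperfect ones. Abcg1 was not among the 4 genes matched.

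Per kilobase of exon, the 3 pump genes led the ABC family in endothelial wells. Abcg2 had 198.7 CPM per kb in Young1, 191.1 in Young2 and 195.99 in AY_Y3, or 195.3 ± 3.86 (SD, n = 3 sets). Abcb1a followed with 114.7, 141.6 and 106.3 CPM per kb (120.9 ± 18.4), and Abcc4 with 73.6, 82.2 and 68.1 (74.7 ± 7.11). These 3 ranges did not overlap one another. The next genes by this measure were Abcf2 at 28.2 ± 8.48, Abcf1 at 20.8 ± 5.57 and Abcf3 at 18.6 ± 3.76 CPM per kb, members of a subfamily without membrane-spanning parts that acts in translation. Abcg1 came after them at 10.8 ± 2.30 CPM per kb. Abca1 had 3.14 ± 2.13 CPM per kb, with 2.71 in Young1, 5.46 in Young2 and 1.26 in AY_Y3, and lay within the range of several little-expressed relatives. Of the 40 family symbols, 17 had a read in at least 5% of the endothelial wells and 4 had none. Abcb1b, the close copy of Abcb1a, had 0.462 ± 0.241 CPM and a read in 18 wells, and the share of reads that match both copies was not tested.

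**Figure D1:**
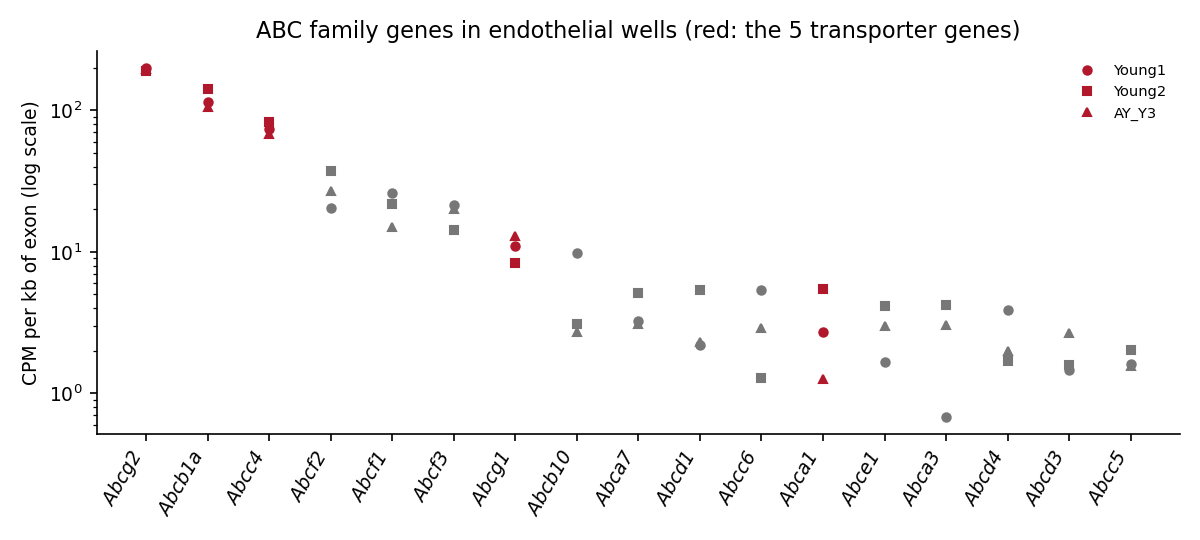
Level of the 17 ABC family genes with a read in at least 5% of the endothelial wells, in CPM per kilobase of exon on a log axis, with 1 point per set (circle Young1, square Young2, triangle AY_Y3). Abcg2, Abcb1a and Abcc4 stand above every other family gene, while Abcg1 lies at 10.8 and Abca1 at 3.14 on average.

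Most endothelial wells carried the pump genes and a minority carried the sterol exporter genes. At least 1 Abcb1a read was found in 82.9% of the wells of Young1, 95.1% of Young2 and 94.1% of AY_Y3, in all 440 of 484 wells or 90.9% (exact 95% binomial interval 87.99 to 93.3%). Abcg2 was found in 91.4%, 88.3% and 91.1% of the wells of the sets in that order, 437 wells or 90.3% in all (87.3 to 92.8%). The low value was Abcb1a in Young1, whose interval of 75.95 to 88.5% lay below those of the other sets, from 89.4% up.
Abcc4 was found in 71.1%, 78.5% and 76.9% of the wells, 366 wells or 75.6% in all (71.5 to 79.4%). Abcg1 was found in 25.7%, 21.5% and 31.95% of the wells, 26.4% in all (22.6 to 30.6%), and Abca1 in 11.8%, 19.02% and 11.2%, 68 wells or 14.05% (11.1 to 17.5%). The sources used here name no molecular identifiers, so these intervals cover counting error only. Thinned to 50000 counts a well, the shares were 88.6% for Abcg2, 85.1% for Abcb1a, 71.1% for Abcc4, 24.4% for Abcg1 and 9.30% for Abca1.

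Among single wells, Abcg2 was the most even of the 5 genes and Abca1 the most concentrated. The coefficient of variation of CPM over wells was 0.838 for Abcg2, 1.16 for Abcb1a, 1.32 for Abcc4, 2.63 for Abcg1 and 4.31 for Abca1. The 10 wells richest in each gene held 11.1% of the Abcg2 reads, 15.4% of those of Abcb1a, 14.4% of those of Abcc4, 30.2% of those of Abcg1 and 64.3% of those of Abca1. Abcg2 had a median of 1388 CPM per well in Young1, 1192 in Young2 and 1403 in AY_Y3, with a highest well at 6707 CPM. Abcb1a had medians of 268, 489 and 437 CPM and a highest well at 4903 CPM, and Abcc4 medians of 267, 430 and 331 CPM and a highest well at 6655 CPM. Both sterol exporter genes had a median of 0 in every set. In the wells that carried them, Abcg1 had a median of 222.3 CPM, with a highest well at 1746 CPM, and Abca1 a median of 68.7 CPM, with a highest well at 1268 CPM. The commonest pattern, in 45.9% of the wells, was reads of 3 of the 5 genes at the thinned depth, while 21 wells had all 5 and 7 had none.

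**Figure D2:**
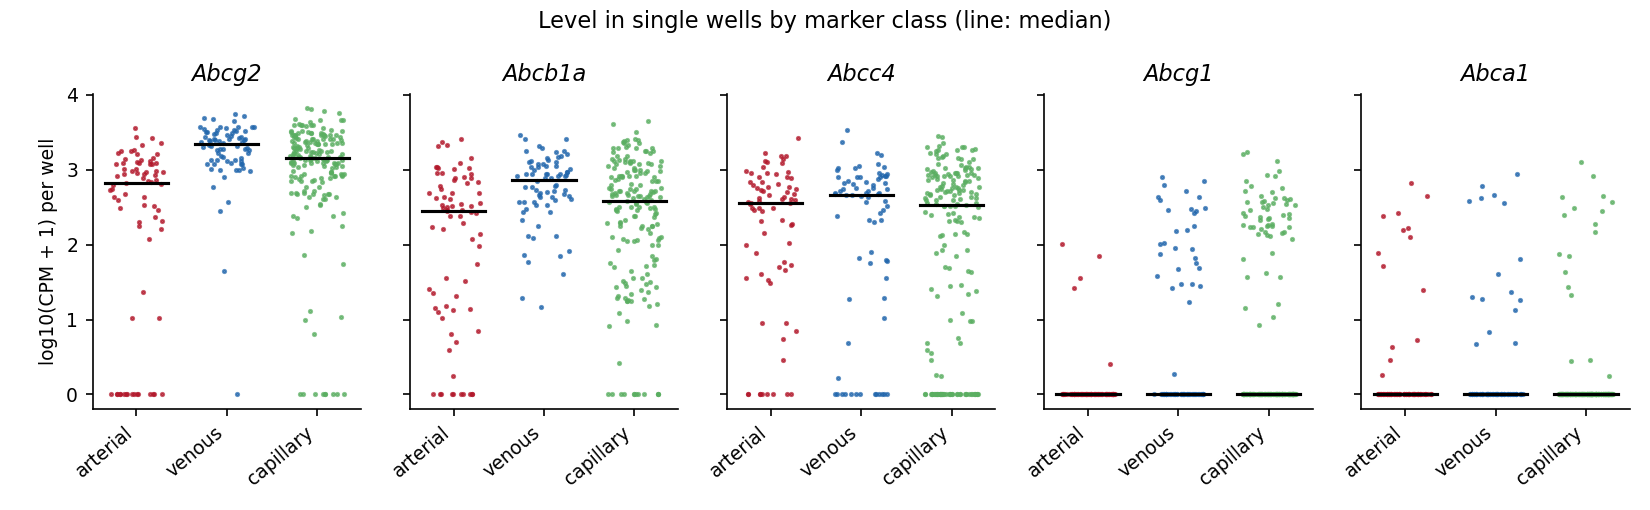
Level of each gene in single wells, as log10(CPM + 1), in arterial-marked, venous-marked and capillary-marked wells (points) with the median of each class (line). Abcg2 and Abcb1a have their lowest class median in arterial-marked wells, and Abcg1 has 5 arterial-marked wells above 0.

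The comparison of marker classes asks whether the pumps and exporters are spread evenly from artery to vein. Counts were summed per set and class and all 9 sums were fitted together in edgeR with the set as a block. Across all 8683 genes tested, 12 passed an adjusted p of 0.05 in arterial-marked against capillary-marked wells (0.138% of those tested), 2 in venous-marked against capillary-marked wells (0.023%) and 45 in arterial-marked against venous-marked wells (0.518%). The median log2 fold change over all genes was -0.16, -0.06 and -0.11 in that order. Of the 5 transporter genes, 1 passed, Abcg2 in arterial-marked against venous-marked wells. With the limit without Mal, 26 of 8931 genes passed between arterial-marked and capillary-marked wells (0.291%) and 89 between arterial-marked and venous-marked wells (0.997%). Abcg2 then passed in both of these contrasts and Abcb1a in the arterial-venous one. No transporter gene passed between venous-marked and capillary-marked wells by edgeR, DESeq2 or limma, and none had an unadjusted p under 0.05 in the edgeR fit of the 484 wells, as 3.04% of all genes did. With the limit without Mal, Abcb1a (0.0146) and Abcg2 (0.0482) had such an unadjusted p there, as 4.28% of all genes did, with adjusted p-values of 0.893 and 1.0 in edgeR.

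Abcg2 was lower in arterial-marked wells than in venous-marked wells in every set. It had 1054 CPM in Young1, 699 in Young2 and 910 in AY_Y3 in arterial-marked wells (888 ± 178.9, SD, n = 3 sets), 2230, 2263 and 2101 CPM in venous-marked wells (2198 ± 85.5), and 1652, 1738 and 1837 CPM in capillary-marked wells (1742 ± 92.5). The 3 classes did not overlap, with venous-marked sums highest and arterial-marked sums lowest. The arterial-venous log2 fold change was -1.27 ± 0.19 (SE) with an adjusted p of 0.0470 in edgeR, and 0.0111 with the limit without Mal. The call was lost when any 1 set was left out, with an adjusted p of 0.115 without Young1, 0.437 without Young2 and 0.429 without AY_Y3, and at 0.0531 and 0.0550 with the margin between marker scores at 0 or 1. By limma, on the mean over wells of log2(CPM + 1), the arterial-venous difference was -3.43 (adjusted p 3.44e-05). Against capillary-marked wells the arterial value was -0.95 ± 0.19 with an adjusted p of 0.166, and 0.0378 with the limit without Mal. Venous-marked wells stood 0.32 ± 0.18 above capillary-marked wells on the log2 scale (adjusted p 1.0), so the order of these neighbours was not set beyond the spread the fit allows. The share of wells with an Abcg2 read was 78.7% in arterial-marked, 98.6% in venous-marked and 95.1% in capillary-marked wells.

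Abcb1a had the same order of classes. Its arterial-marked wells lay less far below the others than those of Abcg2 in Young2 and AY_Y3, but farther below in Young1. Its levels in arterial-marked wells were 254.5 CPM in Young1, 540 in Young2 and 516 in AY_Y3 (437 ± 158.5), in venous-marked wells 686, 993 and 853 CPM (844 ± 153.8), and in capillary-marked wells 589, 680 and 567 CPM (612 ± 59.8). The low arterial value was that of Young1, the set with 13 such wells, and the classes did not overlap in any of the 3 pairings. The arterial-venous log2 fold change was -0.95 ± 0.22 with an adjusted p of 0.171 in edgeR, and 0.0322 with the limit without Mal, while limma gave -3.00 (0.00417). The arterial-capillary value was -0.53 ± 0.22 (adjusted p 0.756) and the venous-capillary value 0.42 ± 0.22 (adjusted p 1.0). The arterial-capillary value was -0.25 without Young1 and also with a margin of 1 between marker scores, -0.80 with Leiden clusters, -0.83 in thinned wells and -1.61 in limma, short of the threshold each time. The venous-capillary value was 0.93 with a margin of 1, 0.27 in thinned wells, 0.23 with Leiden clusters and 1.39 in limma, also short of it. Every one of the 74 venous-marked wells had an Abcb1a read, as did 86.7% of arterial-marked and 93.4% of capillary-marked wells. The ratio of Abcg2 to Abcb1a counts was 4.14, 1.29 and 1.76 in arterial-marked wells of Young1, Young2 and AY_Y3. It was 3.25, 2.28 and 2.46 in venous-marked wells and 2.80, 2.56 and 3.24 in capillary-marked wells. The fold changes of these genes were not tested against each other.

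Abcc4 showed no such order. It had 344, 469 and 597 CPM in arterial-marked wells of Young1, Young2 and AY_Y3 (470 ± 126.2), 546, 444 and 416 CPM in venous-marked wells (468 ± 68.6) and 533, 623 and 430 CPM in capillary-marked wells (529 ± 96.2). The classes overlapped in every pairing. The arterial-venous log2 fold change was 0.04 ± 0.26 (adjusted p 0.990), with 2 SE on either side reaching from -0.49 to 0.57. The arterial-capillary value was -0.15 (adjusted p 0.987; 2 SE from -0.68 to 0.38) and the venous-capillary value -0.19 (adjusted p 1.0; 2 SE from -0.72 to 0.33). A difference of the size fitted for Abcg2 between arterial-marked and venous-marked wells lay outside the first of these ranges, although the sign of each Abcc4 value turned with the processing. The ratio of Abcg2 to Abcc4 counts, which needs no scaling between sums, was 2.03 ± 0.90 in arterial-marked, 4.75 ± 0.57 in venous-marked and 3.39 ± 0.78 in capillary-marked wells (SD, n = 3 sets). Its arterial values, 3.06 in Young1, 1.49 in Young2 and 1.52 in AY_Y3, lay below the venous ones of 4.08, 5.10 and 5.05.

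**Figure D3:**
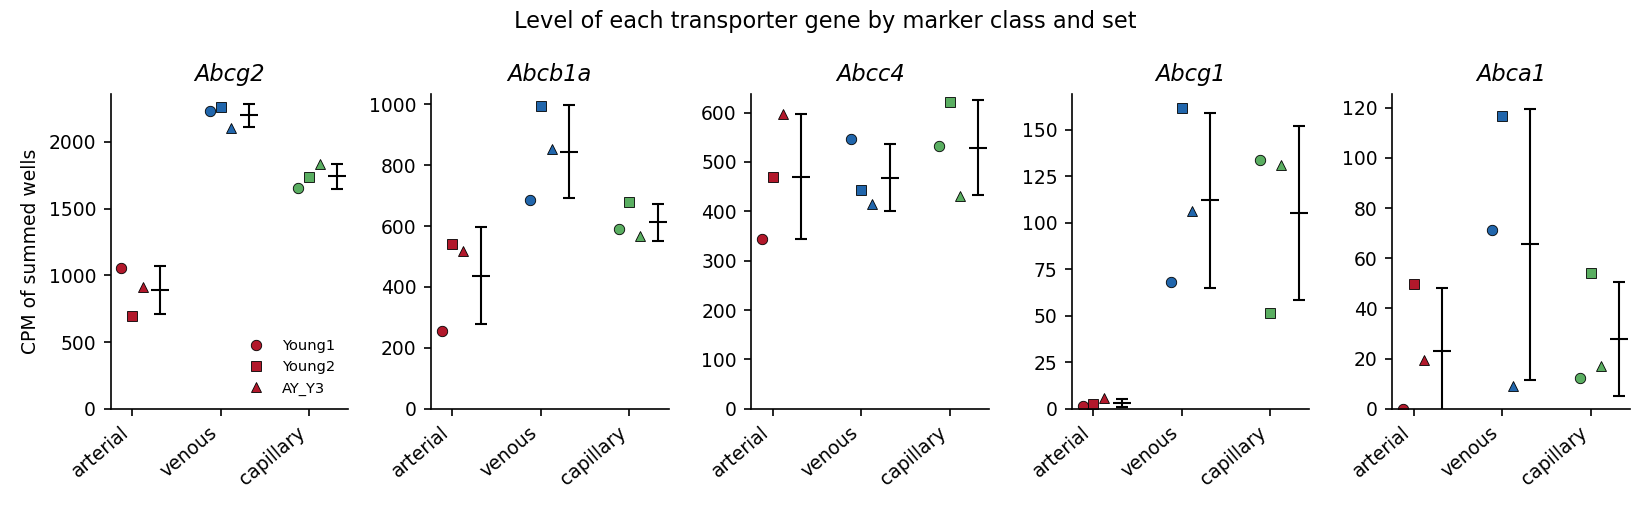
CPM of the summed wells of each class and set for the 5 genes, with 1 point per set and the mean ± SD over 3 sets (black bars). Arterial-marked sums of Abcg2 lie between 699 and 1054 CPM, below all venous-marked and capillary-marked sums, and those of Abcg1 lie between 1.254 and 5.70 CPM.

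Abcg1 had the widest gap in level between arterial-marked wells and the other classes. It reached 1.254 CPM in Young1, 2.80 in Young2 and 5.70 in AY_Y3 in arterial-marked wells (3.25 ± 2.25), from 15, 76 and 88 reads. In venous-marked wells it had 68.3, 161.4 and 106.3 CPM (111.97 ± 46.8), and in capillary-marked wells 133.7, 51.3 and 131.04 CPM (105.3 ± 46.8). Arterial-marked sums overlapped neither other class, while venous-marked and capillary-marked sums overlapped each other. The log2 fold change was -5.23 ± 0.87 against venous-marked wells (adjusted p 0.0635) and -5.19 ± 0.87 against capillary-marked wells (adjusted p 0.109), short of the threshold in edgeR. Without the set as a block these values were -5.08 (adjusted p 0.0274) and -5.00 (0.0398), DESeq2 gave -5.20 (6.53e-10) and -5.14 (2.34e-09), and limma -2.50 (0.00296) and -2.06 (0.0163). Most alternatives did not pass. Of 14 run in edgeR, DESeq2 or limma, Abcg1 passed in 5 against venous-marked and in 4 against capillary-marked wells. The highest adjusted p-values among them were 0.509 and 0.869. Reads were found in 5 of 75 arterial-marked wells (6.67%), the highest at 101.9 CPM, against 41.9% of venous-marked and 32.8% of capillary-marked wells. At the thinned depth the shares were 5.33%, 35.1% and 32.2%. The venous-capillary value was 0.04 ± 0.76 (adjusted p 1.0).

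Abca1, the other sterol exporter gene, was too sparse for these sums to order the classes. It had 0, 49.7 and 19.4 CPM in arterial-marked wells of Young1, Young2 and AY_Y3, 71.2, 116.6 and 8.95 CPM in venous-marked wells, and 12.4, 54.04 and 17.1 CPM in capillary-marked wells. The 0 of 13 arterial-marked wells of Young1 allows a share of up to 23.1% of wells with a read, for counting error only. All classes overlapped. The log2 fold changes were -1.96 ± 2.10 against venous-marked wells (adjusted p 0.901), -0.53 ± 1.79 against capillary-marked wells (adjusted p 0.990) and 1.43 ± 1.85 for venous-marked against capillary-marked wells (adjusted p 1.0), values that depend on the prior count where a sum is 0. Of arterial-marked wells 18.7% had a read, of venous-marked 21.6% and of capillary-marked 9.84%.

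**Figure D4:**
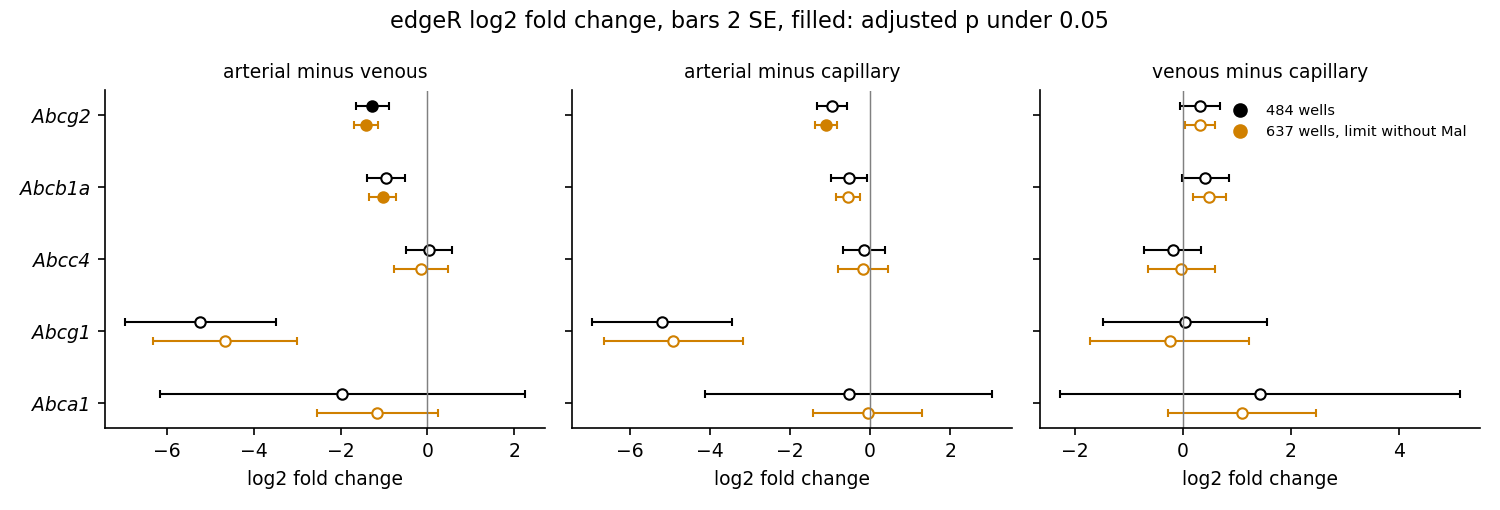
edgeR log2 fold change of each gene in the 3 contrasts, with bars of 2 SE, for the 484 wells (black) and for the 637 wells kept by the limit without Mal (orange). Filled points pass an adjusted p of 0.05 over all genes tested, and Abcg2 in arterial-marked against venous-marked wells is the filled black point, at -1.27.

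Read by the sums of the sets alone, 3 of the 5 genes (Abcg2, Abcb1a and Abcg1) had every arterial-marked sum below every capillary-marked one, as 9.18% of all genes tested did. The same 3 had every arterial-marked sum below every venous-marked one, as 10.1% of all genes did. Abcg2 and Abcb1a had every venous-marked sum above every capillary-marked one, as 6.12% of all genes did. The marker sums of other cell types also differed between classes. Pericyte markers summed to 88.97 ± 29.7 CPM in arterial-marked, 232.5 ± 128.8 in venous-marked and 113.2 ± 28.2 in capillary-marked wells. In arterial-marked wells 9 of these 10 markers were at 0 and Rgs5 gave the whole sum. Smooth muscle markers summed to 170 ± 92.9, 18.8 ± 10.8 and 13.1 ± 4.39 CPM, with Mylk giving most of the arterial sum and Tagln, Cnn1, Des and Tpm2 at 0 there. Astrocyte markers summed to 43.3 ± 34.8, 83.8 ± 89.5 and 153.9 ± 93.3 CPM, with 1 of 8 at 0 in arterial-marked, 4 in venous-marked and 3 in capillary-marked wells. Oligodendrocyte markers without Mal summed to 117.1 ± 21.3, 40.3 ± 10.8 and 69.9 ± 21.2 CPM, with every arterial-marked sum above every venous-marked and capillary-marked one and 3, 3 and 0 of 7 markers at 0. Microglia and macrophage markers summed to 0.265 ± 0.168, 24.6 ± 25.8 and 3.32 ± 3.53 CPM, with 5, 1 and 5 of 8 at 0. The part of these transcripts in the differences of the transporter genes was not tested.

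Well by well, the levels of Abcg2 and Abcg1 differed with the first arterial marker present. In wells with 0, 1 or 2 arterial markers at 10 CPM or more, Abcg2 averaged 1768 ± 83.04, 962 ± 199.3 and 945 ± 337 CPM (SD, n = 3 sets), and Abcg1 97.6 ± 13.3, 5.44 ± 7.10 and 7.31 ± 8.92 CPM. Each set had lower means of both genes with 1 marker than with 0. Abcb1a averaged 718 ± 168.6, 493 ± 191.2 and 283 ± 231.9 CPM along the same steps, with AY_Y3 at 643 and 686 CPM for 0 and 1 markers and so not lower at the first step. Abcc4 averaged 508 ± 80.6, 434 ± 61.4 and 564 ± 153.3 CPM. The last step rests on 33 wells, 2 of them from Young1, and no test was made on these wells. Along the venous pair Abcg2 averaged 1475 ± 84.2, 2026 ± 319 and 2295 ± 380 CPM with 0, 1 and 2 markers, higher at each step in all 3 sets. Abcb1a averaged 633 ± 118.1, 637.4 ± 172.3 and 1041 ± 62.9 CPM, and its means with both venous markers, 1108, 1032 and 983 CPM, lay above all those with 0 or 1. Abcg1 stood at 79.2 ± 22.6, 82.4 ± 12.3 and 73.5 ± 19.4 CPM, and Abca1 at 25.2 ± 15.3, 26.6 ± 22.3 and 67.4 ± 34.7 CPM, higher with both markers than with 0 in each set. The capillary pair was present in most wells and was divided into 3 equal bins of its score within a set. From the lowest to the highest bin, Abcg2 averaged 1445 ± 142.3, 1650 ± 240.96 and 1673 ± 183.2 CPM, Abcb1a 607 ± 14.03, 718 ± 256.1 and 658 ± 86.01 CPM, and Abcg1 74.7 ± 11.4, 48.8 ± 16.5 and 116.1 ± 48.7 CPM. The bins overlapped for Abcg2 and Abcb1a, and for Abcg1 the middle bin lay lowest in Young2 and AY_Y3.

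**Figure D5:**
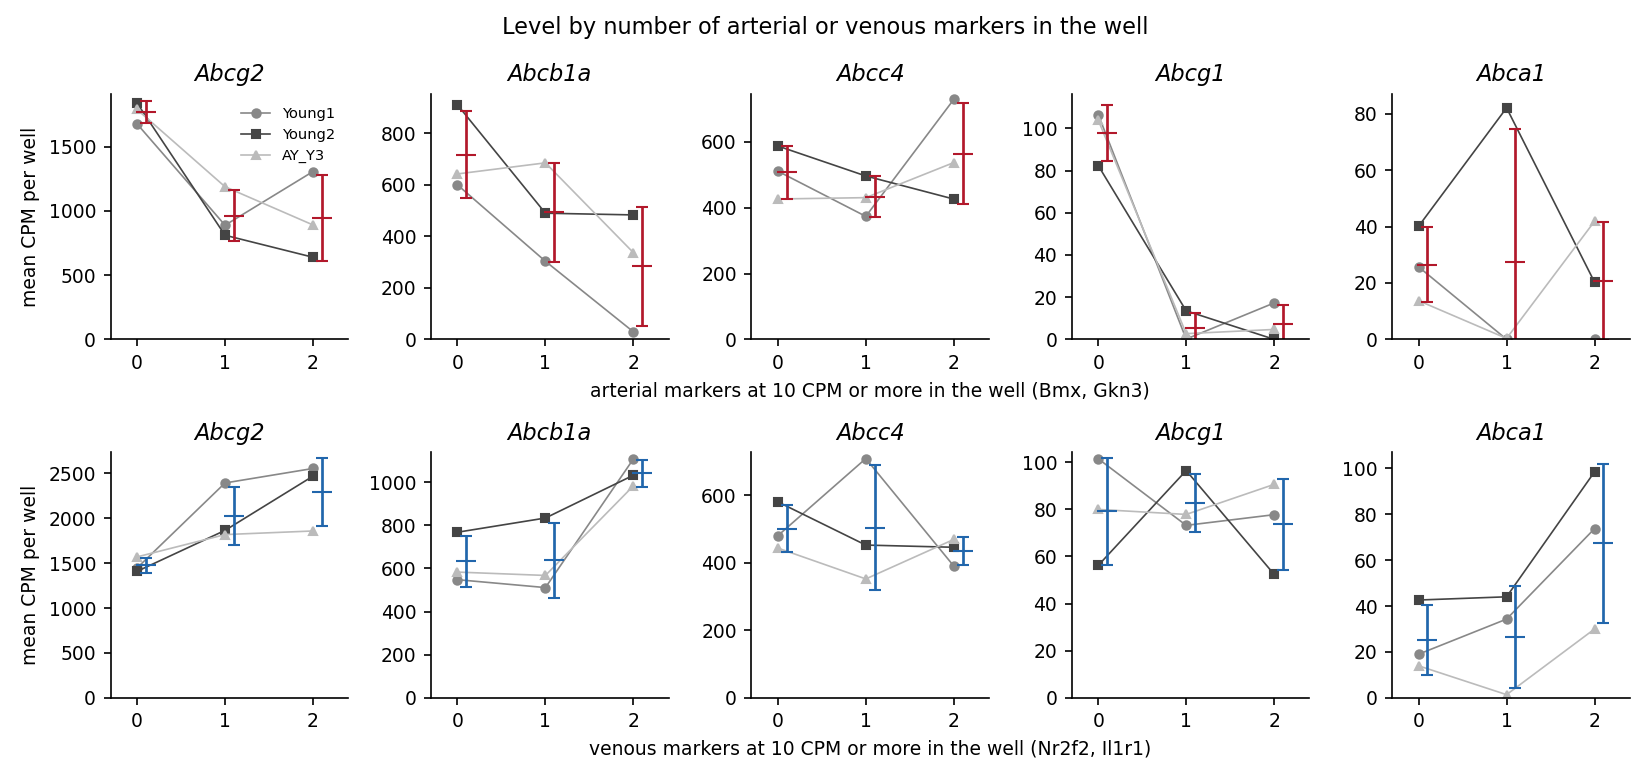
Mean CPM per well of each gene in wells with 0, 1 or 2 arterial markers (top row) or venous markers (bottom row) at 10 CPM or more, with 1 line per set and the mean ± SD over the sets (coloured bars). Abcg1 stands at 5.44 CPM on average with 1 arterial marker, and Abcg2 stands at 2295 CPM with both venous markers.

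Over the wells of a set, the 5 genes were at most weakly correlated. On counts thinned to 50000, the mean Spearman correlation over the sets was highest for Abcb1a with Abcg2 at 0.253 (0.287, 0.273 and 0.200 in Young1, Young2 and AY_Y3), followed by Abcg2 with Abcg1 at 0.236 and Abcb1a with Abcg1 at 0.154. The other 7 of 10 pairs lay between -0.010 and 0.126, among them the sterol exporters Abcg1 and Abca1 at 0.001. These values come from all endothelial wells of a set, which differ in segment. Within capillary-marked wells alone, Abcb1a with Abcg2 stood at 0.060, with 0.054, -0.079 and 0.205 in the sets, and Abcg2 with Abcg1 at 0.123. By presence at the thinned depth, wells that carried Abcg1 also carried Abcg2 in 98.3% of cases, against 85.5% of the wells without it. Wells with an Abcb1a read held Abcg2 in 92.2% of cases, against 68.1% of the wells without.

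The gene most correlated with both main pumps over wells was Slco1a4, an organic anion transporter of the barrier. Its mean correlations were 0.419 to Abcb1a and 0.415 to Abcg2 among 2538 genes compared. Wells of all segments were pooled within a set, and likeness within a class was not tested. Next for Abcb1a came Gatm, a creatine synthesis enzyme (0.316), Slc22a8, an organic anion transporter (0.315), Pglyrp1, a secreted peptidoglycan recognition protein (0.314), and Tmsb10, an actin-binding peptide (0.299). Next for Abcg2 came Gatm (0.408), the membrane-bound carbonic anhydrase Car4 (0.397), Itm2a, a membrane protein (0.396), and Slc22a8 (0.352). For Abcg1 the 5 genes were Car4 (0.364), Slc22a8 (0.349), the iron exporter Slc40a1 (0.313), Gatm (0.311) and Ctla2a (0.304). The best matches of the other transporter genes were weaker. For Abcc4 they were Mal (0.186), Sypl (0.182), the ribosomal protein gene Rps12 (0.180), the clathrin heavy chain gene Cltc (0.171) and Ccdc85a (0.165). Mal, the gene behind most wells left out, had 0.301 in Young1, 0.206 in Young2 and 0.050 in AY_Y3. For Abca1 the best matches were Atp5l, of the mitochondrial ATP synthase (0.206), Zc3h13 (0.189), Pdcd4 (0.178), Ndufv2, of respiratory complex I (0.177), and Rhoc, a small GTPase (0.177). Slco1a4, Gatm, Slc22a8 and Car4 thus stood among the 5 nearest genes of more than 1 transporter. Abcc4 and Abca1 each shared none of their 5 with another transporter gene.

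The other 35 ABC family symbols gave 12 genes to the test, and none passed in any contrast. Among these 12, 0 had an unadjusted p under 0.05 between arterial-marked and capillary-marked wells in edgeR, as 6.48% of all genes did. There were 2 between venous-marked and capillary-marked wells (3.04% of all genes) and 1 between arterial-marked and venous-marked wells (9.06%). In the venous-capillary contrast these were Abca7 (log2 fold change -5.25 ± 1.89, against capillary) and Abcb10 (-5.47 ± 1.95). In the arterial-venous one it was Abca7 (5.40 ± 2.03). Both genes were named after their values were seen. Abca7 had a read in 6.82% of the endothelial wells and Abcb10 in 7.64%. Venous-marked sums of Abca7 were 1.33 CPM in Young1, 0.90 in Young2 and 0 in AY_Y3. The medians of the 12 genes were 0.04, -0.48 and 0.19 in the order arterial-capillary, venous-capillary and arterial-venous, beside -0.16, -0.06 and -0.11 over all genes. The 5 most abundant by CPM, Abcf1, Abcf2, Abcf3, Abca7 and Abca3, had adjusted p-values of 0.468 and above in all 3 contrasts, the lowest that of Abca7 between arterial-marked and venous-marked wells. Abca7 and Abca3 take part in lipid transport.

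Of 38 genes of sterol supply and export, 28 were tested and 1 passed, Apod, a lipid-binding apolipoprotein. Apod fell to 40.4 ± 20.9 CPM in arterial-marked wells, against 538 ± 255.7 CPM in venous-marked wells (log2 fold change -3.61 ± 0.45, adjusted p 0.0272 in edgeR). The Apod call was lost when any 1 set was left out, with adjusted p-values of 0.139 to 0.305. Against capillary-marked wells its value was -1.80 ± 0.42 (adjusted p 0.288). The 2 most abundant of the list did not pass. Pltp, the phospholipid transfer protein gene, had 2936 ± 190.8, 4636 ± 575 and 4717 ± 1191 CPM in arterial-marked, venous-marked and capillary-marked wells, and Apoe, the apolipoprotein E gene, 280 ± 113.98, 752 ± 104.4 and 872 ± 24.5 CPM. Their arterial-capillary log2 fold changes were -0.64 ± 0.18 (adjusted p 0.438) and -1.66 ± 0.29 (adjusted p 0.119). The median of the list was -0.37 in arterial-capillary, -0.06 in venous-capillary and -0.55 in arterial-venous.

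Of 31 genes of xenobiotic sensing and conjugation, 18 were tested and none passed in edgeR, with 4, 1 and 3 at an unadjusted p under 0.05 in arterial-capillary, venous-capillary and arterial-venous, where 6.48%, 3.04% and 9.06% of all genes had one. With the limit without Mal 1 of the 18 passed, Mgst1, a microsomal glutathione transferase gene, which rose in arterial-marked against capillary-marked wells (3.78 ± 0.49, adjusted p 0.0410 in edgeR). Its most abundant members, the glutathione transferase genes Gstm1 and Gsta4, had 308 ± 137.7 and 252.2 ± 18.2 CPM in arterial-marked wells, 521 ± 69.1 and 394 ± 95.1 CPM in venous-marked wells, and 492 ± 75.1 and 437 ± 61.5 CPM in capillary-marked wells. The median of the list was -0.42, 0.00 and 0.09. Among 13 tested genes of membrane anchoring and traffic, 1 passed, the PDZ scaffold gene Slc9a3r2, which rose to 2750 ± 727 CPM in arterial-marked wells, against 1224 ± 349 CPM in venous-marked wells (1.22 ± 0.18, adjusted p 0.0470 in edgeR). That call was lost without any 1 set (adjusted p 0.171 to 0.474), without the block (0.0715) and with the margin at 0 or 1 (0.0522 and 0.138). Cav1, the caveolin gene, had 925 ± 248.5, 558 ± 163.9 and 516 ± 166.5 CPM in arterial-marked, venous-marked and capillary-marked wells and did not pass.

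Other carriers of the barrier were the list with the lowest arterial median. All 9 tested genes had log2 fold changes below 0 in arterial-marked wells against both other classes. At least Slc2a1 and Slco1c1 among them lay within 2 SE of 0 in both contrasts. The medians were -1.95 against capillary-marked and -2.06 against venous-marked wells, beside -0.16 and -0.11 over all genes tested. The share of all genes below 0 is not given here. Of the 9, 1 passed in each of these contrasts. Mfsd2a, a carrier of lysophosphatidylcholine lipids, fell to 142.5 ± 9.24 CPM in arterial-marked wells, against 777 ± 52.8 CPM in capillary-marked wells (-2.44 ± 0.28, adjusted p 0.0317 in edgeR). Slc7a5, the large neutral amino acid transporter gene, fell to 52.2 ± 27.9 CPM in arterial-marked wells, against 391 ± 81.8 CPM in venous-marked wells (-2.93 ± 0.44, adjusted p 0.0470). Both calls were lost without any 1 set, with adjusted p-values of 0.0978 to 0.542 for Mfsd2a and 0.2501 to 0.339 for Slc7a5. They were also lost with the margin at 0 or 1 (0.0746 and 0.394 for Mfsd2a, 0.102 and 0.0580 for Slc7a5), with no limit on other types (0.121 and 0.0992) and with the limit without Mal (0.221 and 0.160), that of Mfsd2a with Leiden clusters (0.0761) and that of Slc7a5 with no filter (0.0834). With the limit without Mal, 2 other carriers passed in both contrasts. Slc22a8 fell by 3.27 on the log2 scale against capillary-marked wells (SE 0.15, adjusted p 0.000332 in edgeR) and by 3.27 against venous-marked wells (0.000325). Slco1a4 fell by 1.36 (adjusted p 0.0230) and by 1.46 (0.0111) in the same order. The arterial-venous median of the list was -1.46 there. Slc2a1, the glucose transporter gene and the most abundant of the list, had 8968 ± 2083, 9903 ± 2135 and 9271 ± 1469 CPM in arterial-marked, venous-marked and capillary-marked wells and did not pass (-0.03 ± 0.08 against capillary, adjusted p 0.990). Slco1c1, a carrier of thyroid hormone, had 1062 ± 826, 1267 ± 80.6 and 1566 ± 374 CPM. Its arterial-marked sums were 110 CPM in Young1, 1594 in Young2 and 1481 in AY_Y3.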

How the data were processed

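The authors deposited whole-number read counts per gene symbol, with no normalization, for each well. Bowtie 0.12.2 and the builds mm8 and mm10 are named in the submitters' processing notes, with no role given. The sources used here name no counting tool or annotation and do not say whether strand was used. How reads shared by overlapping, antisense or closely similar genes, such as Abcb1a and Abcb1b, were assigned is therefore not known.

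Counts were scaled to counts per 1000000 (CPM). Wells were limited at 2000 CPM summed per list of another cell type, and no doublet caller was run. A well was marked for the pair with the highest score, the mean of log2(CPM + 1) of its 2 genes centred and divided by the SD within the set, if 1 gene reached 10 CPM and the score led by 0.5. There were 78 wells within 0.25 of that margin. The marker pairs were left out of the tests. Sums of at least 10 wells were fitted with edgeR 4.0.16 (quasi-likelihood, TMM, R 4.3.3) on genes passing filterByExpr with a read in at least 5% of endothelial wells, with Benjamini-Hochberg adjustment over all genes tested. All classes came from every set, hence the block. Standard errors are the log2 fold change over the square root of F. The fit was also run on simulated counts that held no differences between sets, and the outcome of that run is not used here. Alternatives used DESeq2 1.42.0, limma 3.58.1 on the mean log2(CPM + 1), Leiden clusters of 43 segment markers, counts thinned to 50000 per well, other filters and limits, no block and each set left out. Exon lengths are unions of GENCODE M21 exons (GRCm38).

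The genes, lists and tests were chosen with earlier results of these data known. The text names the 5 genes, the called and the 5 most abundant other family genes, called genes of each list with its 2 most abundant, and the 5 genes most correlated with each transporter gene among those with a read in at least 25% of the wells of each set.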

Additional observations from a re-analysis of the deposited data

How the results depend on the processing

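The share of tested genes called depended on the method. In arterial-capillary, where edgeR called 0.138% of the genes, DESeq2 called 4.07%, limma 4.35%, thinned wells 1.07%, no limit on other types 0.551%, Leiden clusters 0.396%, no replicate block 0.380%, the limit without Mal 0.291% and a margin of 1 0.0237%. In arterial-venous, where edgeR called 0.518%, limma called 6.98%, DESeq2 6.44%, Leiden clusters 1.82%, thinned wells 1.74%, no limit 1.72%, the limit without Mal 0.997% and a margin of 1 0.142%, while no replicate block gave 0.679% and no filter on low counts 0.165%, or 30 genes. In venous-capillary, where edgeR called 2 genes or 0.023%, DESeq2 called 0.967%, limma 0.530%, and thinned wells, a margin of 0 and the limit without Mal 1 gene each (0.0125%, 0.0115% and 0.0112%). There 0 genes were called with no block, no filter, a margin of 1, no limit or Leiden clusters, with 2.20 to 5.61% of genes at an unadjusted p under 0.05. Leaving out 1 set at a time gave 0 to 0.0344% in arterial-capillary, 0 in venous-capillary every time and 0 to 0.172% in arterial-venous, with 1.47 to 8.74% at an unadjusted p under 0.05. Of the 5 transporter genes, 0 were called in arterial-capillary, but 2 by DESeq2, limma and thinned wells, and 1 without the block, without a limit on other types and with the limit without Mal. In arterial-venous 1 was called, but 3 by DESeq2, limma and without a limit, 2 without the block, by Leiden clusters, thinned wells and the limit without Mal, and 0 at either margin or without any 1 set. In venous-capillary the count stayed at 0 under all alternatives run. The median log2 fold change over all genes was 0.18, 0.40 and -0.18 in limma, in the order arterial-capillary, venous-capillary and arterial-venous, against -0.16, -0.06 and -0.11 in edgeR, and -0.36, -0.17 and -0.15 with no filter.

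Signs of values that missed the threshold turned for Abcc4, Abcg1 and Abca1. The log2 fold change of Abcc4 became 0.0035 (margin 1) and 0.77 (limma) in arterial-capillary, with -0.48 to 0.020 when 1 set was left out, and 0.081 (margin 1) and 0.53 (limma) in venous-capillary. In arterial-venous it became -0.0012 (no TMM), -0.036 (margin 0), -0.077 (margin 1), -0.13 (no limit), -0.23 (thinned), -0.15 (limit without Mal) and -0.24 to 0.31 with 1 set left out. The venous-capillary value of Abcg1 became -0.017 (no filter), -0.33 (margin 1), -0.28 (no limit), -0.25 (Leiden), -0.26 (thinned), -0.25 (limit without Mal) and -0.75 to 0.76 with 1 set left out. The arterial-capillary value of Abca1 became 0.97 (Leiden) and 0.20 (limma), with -1.66 to 0.053 when 1 set was left out. The cause was not tested.

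The share of wells with a gene at 10 CPM or more was 87.2% for Abcb1a, 70.9% for Abcc4 and 10.1% for Abca1, and thinned 85.1%, 71.1% and 9.30%. With the limit at 500 CPM, Abcb1a was in 85.2%, Abcg2 in 85.2%, Abcc4 in 66.05%, Abcg1 in 19.1% and Abca1 in 9.26% of wells. The fits at that limit were not run, since only 4 of 9 sums had 10 wells. Precision is limited by 3 sets, 13 arterial-marked wells in Young1 and few wells with Abcg1 or Abca1.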

Other observations

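Wells left out through Mal alone or for pericyte markers carried Abcg2 and Abcb1a at levels near those of the endothelial wells. Wells over the limit for astrocyte markers had a lower median of Abcg2. The wells left out through Mal alone had 1729 ± 100.8 CPM of Abcg2, 637 ± 51.6 CPM of Abcb1a, 437 ± 35.2 CPM of Abcc4, 60.6 ± 13.8 CPM of Abcg1 and 34.2 ± 4.10 CPM of Abca1 (SD, n = 3 sets). In the endothelial wells these genes had 1592 ± 31.4, 662 ± 100.8, 477 ± 45.4, 78.6 ± 16.8 and 32.6 ± 22.1 CPM. In the 78 wells over the limit for pericyte markers, the median well had 1336 CPM of Abcg2 and 516 CPM of Abcb1a, against 1323 and 413 CPM in the endothelial wells. In the 16 wells over the limit for astrocyte markers, the median was 726 CPM for Abcg2 and 414 CPM for Abcb1a, and Abca1 had a read in 4 of the 16. Abcc9, an ABC gene of pericytes, had 120 CPM in the wells left out and 0.161 ± 0.279 CPM in the endothelial wells, which the limit itself selects since Abcc9 is among its markers. These wells were left out by the marker lists and no test was made on them.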
